A study of Homo sapiens with 6 samples.

Results

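The interferon-stimulated genes and RNA sensors described here are 51 human genes chosen by function from the pathway that runs from the type I interferon receptor to its antiviral products. The list was drawn up with earlier results of these data known, so its shares beside those of all genes are descriptions only. Members were the array features whose annotated symbol is 1 of these 51 genes. A feature is a transcript cluster, a set of probes summarised to 1 value. Of the 51, 48 were measured, each by 1 feature of its own, among 22411 genes with such a feature. IRF9 and TRIM22 share their features with a neighbouring gene and are not given values, and no feature was named for STAT2.

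Total RNA from proliferating cultures of human leukaemia lines was measured on 6 whole-transcript arrays. The lines were MV4-11, UT7-5.3 and K562, all carrying a lentiviral vector. In 3 arrays, 1 per line, the vector encoded shRINF, a short hairpin RNA against CXXC5 mRNA (RINF is another name of CXXC5), and in the other 3 it encoded shcontrol, a control hairpin. The CXXC zinc finger of this nuclear protein recognises CpG-rich DNA. MV4-11 is a monocytic line from an acute leukaemia, UT7-5.3 derives from the megakaryoblastic UT-7 line, and K562 comes from a chronic myeloid leukaemia with erythroid features. UT7-5.3 was grown in MEM α with GM-CSF and the others in RPMI medium without it, so line, medium and cytokine cannot be told apart in any comparison between lines. The control cells carry a hairpin too, and no array of cells without a vector was analysed here.

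Type I interferons bind a receptor made of IFNAR1 and IFNAR2, which activates the kinases TYK2 and JAK1. These phosphorylate STAT proteins, which join IRF9 and bind a DNA sequence, the interferon-stimulated response element, near many interferon-induced genes. Cells start interferon production when sensors such as IFIH1 (MDA5) and RIGI (RIG-I) meet double-stranded or otherwise foreign RNA in the cytoplasm. The induced proteins block viruses at entry, translation, replication and release, and USP18 and ISG15 dampen the signal.

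The core letters of the response element were searched in RefSeq promoter windows (build GRCh38.p14) that run from 250 bases before a gene's start to 50 after it. The letters searched were GAAA, any 2 letters and again GAAA, on either strand, so that they read TTTC, any 2 letters and TTTC where they lie on the opposite one, and overlapping matches were counted separately. Of the 51 genes, 39 had a window, and 23 of these 39 (59.0%) held the letters in at least 1 window. Over all 27305 genes with a window the share was 4.38%. The following 30-base stretches, 5′ to 3′ on the gene's strand with the matched letters in capitals, show the match in genes whose values are described below. The first 6 belong to genes that were higher with shRINF in UT7-5.3, and the last 3 to genes that were not.
EPSTI1, chr13:42992272-42992301, minus strand: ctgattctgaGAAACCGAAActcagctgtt
IFIH1, chr2:162318686-162318715, minus strand: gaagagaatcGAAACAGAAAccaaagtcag
HERC5, chr4:88457035-88457064, plus strand: aaacattatgTTTCGTTTTCcactggagct
PARP9, chr3:122564322-122564351, minus strand: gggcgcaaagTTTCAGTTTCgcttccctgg
PARP14, chr3:122680800-122680829, plus strand: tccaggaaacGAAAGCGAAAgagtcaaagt
SAMD9, chr7:93118096-93118125, minus strand: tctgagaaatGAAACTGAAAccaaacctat
ISG15, chr1:1013380-1013409, plus strand: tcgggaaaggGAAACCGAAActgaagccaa
IFI6, chr1:27672266-27672295, minus strand: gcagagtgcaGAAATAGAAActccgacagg
OAS3, chr12:112938321-112938350, plus strand: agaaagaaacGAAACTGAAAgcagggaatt
The match of PARP9 is also that of DTX3L, its neighbour on the opposite strand, since the starts of the 2 genes lie 38 bases apart on chromosome 3. A match describes the letters of the window and does not show that a protein binds there.

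The values are RMA log2 expression values. Values of 4 or less were read as the floor of the array, since the file holds no detection calls. Across all features the median value of the 6 arrays lay between 4.64 and 4.71, and the arrays of a line correlated at 0.993 to 0.997, against 0.930 to 0.959 between lines (correlations across features, which are not independent). CXXC5 was at 7.95 with shRINF and 8.58 with shcontrol in MV4-11, at 7.76 and 8.42 in UT7-5.3, and at 7.95 and 8.40 in K562, a mean difference of -0.58 ± 0.11 (SD, n = 3 lines; limma adjusted p = 0.152). Myelomonocytic markers were highest in MV4-11, with median levels of 9.18 and 8.62, against 5.64 to 6.16 on the other 4 arrays, and erythroid markers were lowest there, at 6.07 and 6.11 against 9.32 to 9.77. Megakaryocytic markers had medians of 5.77 and 5.92 in UT7-5.3, against 5.14 to 5.50 on the other 4 arrays. Of these, ITGA2B, ITGB3 and GP1BA were higher in UT7-5.3 than in the other lines. Each of the remaining markers of that list had line means that differed by at most 0.22. Lymphoid markers had medians of 4.86 to 5.62, though NKG7 was at 8.17 with shRINF and 7.89 with shcontrol in MV4-11. Fibroblast and epithelial markers had medians of 5.00 to 6.07. Among them, KRT8 was at 9.64 with shRINF and 9.61 with shcontrol in K562, and EPCAM at 7.70 and 7.71. Spread differed between the pairs: over all kept genes the SD of the differences was 0.180 in MV4-11, 0.259 in UT7-5.3 and 0.102 in K562. As each line gave 1 array per group, within-line differences have no replicate check, and in bulk RNA more RNA per cell and more cells of a kind cannot be told apart.

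The first comparison asked whether interferon genes differed between shRINF and shcontrol. Across the 3 lines no member passed limma's threshold (lowest adjusted p = 0.761, over 15311 kept genes), and neither did any other gene, so that 0% of genes were called in either direction. CXXC5 itself, at 63.3% to 73.2% of its shcontrol level with shRINF, was among the genes not called. The result therefore does not show that these genes are unchanged when CXXC5 is lost. Kept genes reached a log2 value of 5 on 2 or more of the 6 arrays, and 37 of the 48 members were kept. Before adjustment, 6 of these 37 (16.2%) had a limma p under 0.05 and were higher with shRINF, where 4.3% of all kept genes were higher, and 0 of the 37 were lower, where 2.12% of all genes were. The 6 were HERC5, EPSTI1, SAMD9L, USP18, IFIH1 and PARP14, with unadjusted limma p between 0.00462 and 0.0492. All 3 lines differed in the same direction for 7 members on the higher side (18.9%, against 13.7% of all kept genes) and for 2 on the lower side (5.41%, against 15.3%). The 7 were EPSTI1, SAMD9L, IFIT3, IFI16, IFITM1, IFITM2 and HERC5, the last with a K562 difference of 0.01 at the floor, and the 2 were IRF7 and ISG20.

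Within lines the members differed most in UT7-5.3 and MV4-11. In UT7-5.3, 11 of 37 members were higher by 0.3 log2 units or more (1.23-fold), or 29.7%, where 13.9% of all kept genes were, and 3 were lower, or 8.11%, where 9.47% of all genes were. In MV4-11, 7 of 36 were higher, or 19.4%, where 4.17% of all genes were, and 2 were lower, or 5.56%, where 3.22% were. In K562 a single member of 35, IFI16, was past that size on the higher side (background 0.954%) and 0 on the lower (background 0.735%). A gene at the floor on both arrays of a line was not counted there. By direction alone, 22 members were higher and 13 lower in MV4-11, where 49% and 47.4% of all kept genes were. In UT7-5.3, 26 members were higher and 11 lower, where the shares of all kept genes were 42.3% and 56.3%. In K562, 16 were higher and 17 lower, against 52% and 43.4% of all kept genes. The median difference of the members was 0.065 in MV4-11, 0.12 in UT7-5.3 and 0.00 in K562, where that of all kept genes was 0.00, -0.06 and 0.01. The shares by line are plotted with those of all kept genes.

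**Figure D1:**
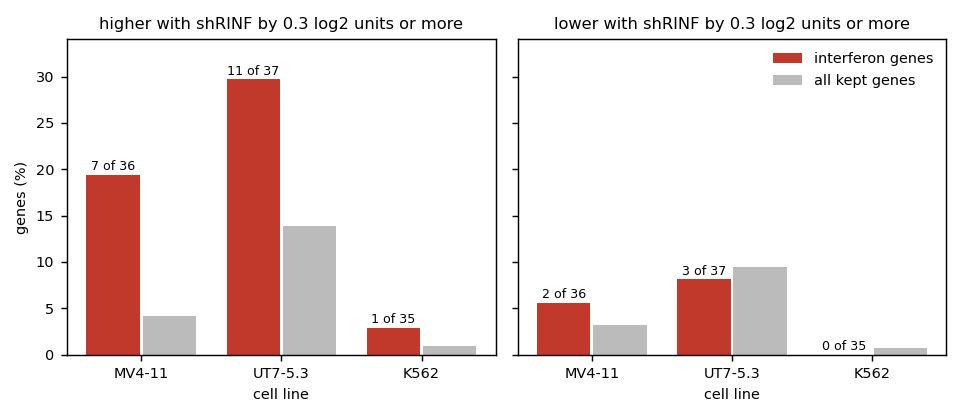
Share of genes (%) higher (left panel) or lower (right panel) with shRINF than with shcontrol by 0.3 log2 units or more, by cell line, for the interferon genes (red, with counts) and all kept genes (grey). In UT7-5.3, 11 of 37 interferon genes were higher by that size, and in MV4-11, 7 of 36.

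HERC5 and USP18 were past that size upward in both UT7-5.3 and MV4-11. They were 2 of 37 members, where 1.35% of all kept genes were past it upward in 2 or more lines. Downward, 0 members were past it in 2 or more lines, where 0.503% of genes were. Most other members past it were so in 1 line, as were most genes. Of the 630 kept genes past it upward in MV4-11 most were not past it in another line, since 207 were past it upward in 2 or more. Over the 36 members above the floor in both lines, the differences in UT7-5.3 and MV4-11 had a Pearson correlation of 0.04 and a Spearman correlation of 0.09, against 0.11 and 0.14 over 15001 genes. These are descriptions across genes of 2 pairs of arrays, with no test. All within-line differences are shown in the heat map of the 48 genes.

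**Figure D2:**
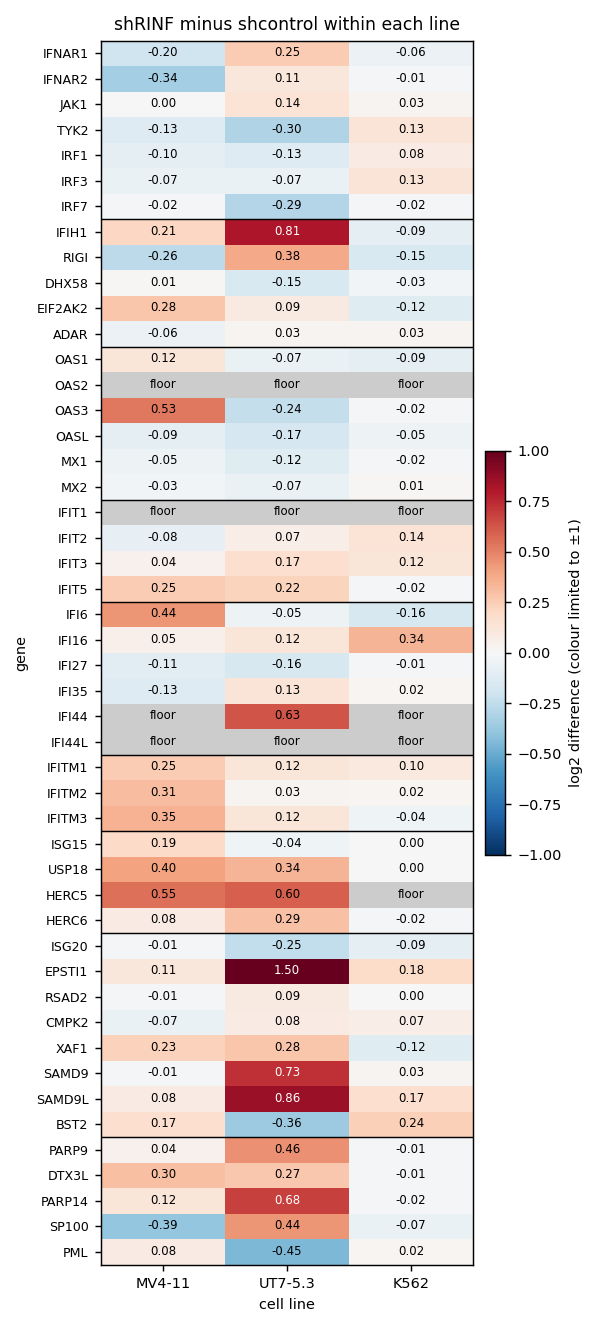
Log2 difference, shRINF minus shcontrol, of each of the 48 measured genes (rows, grouped by role) in MV4-11, UT7-5.3 and K562 (columns), with red higher and blue lower with shRINF, and grey where both arrays of a line were at the floor. EPSTI1 in UT7-5.3 has the largest difference, 1.5.

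Receptor subunits, kinases and transcription factors had small differences. The receptor chain IFNAR2 was at 7.59 with shRINF and 7.93 with shcontrol in MV4-11, 8.16 and 8.05 in UT7-5.3, and 7.32 and 7.33 in K562. TYK2, a kinase bound to the receptor, was at 7.69 and 7.82 in MV4-11, 7.59 and 7.89 in UT7-5.3, and 7.50 and 7.37 in K562. These were the members of this group past 0.3, IFNAR2 at -0.34 in MV4-11 and TYK2 at -0.30 in UT7-5.3. IRF7, which amplifies interferon production, was at 6.42 with shRINF and 6.44 with shcontrol in MV4-11, 6.33 and 6.62 in UT7-5.3, and 6.39 and 6.41 in K562. It was lower with shRINF in each line, with a mean difference of -0.11 ± 0.16 (SD, n = 3; limma adjusted p = 0.771). The kinase JAK1 was at 8.90 and 8.90 in MV4-11, 10.07 and 9.93 in UT7-5.3, and 8.73 and 8.70 in K562, higher in UT7-5.3 than in the other lines with either hairpin. The other receptor chain IFNAR1 and the transcription factors IRF1 and IRF3 stayed between -0.20 and 0.25 in every line. In MV4-11, 0 of the 7 measured genes of this group were higher and 6 were lower, where 49% and 47.4% of all kept genes were. The 6 differed by -0.34 to -0.02 in 1 pair of arrays.

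Among the RNA sensors, the largest difference was that of IFIH1, which binds long double-stranded RNA. IFIH1 was at 5.63 with shRINF and 5.42 with shcontrol in MV4-11, at 6.60 and 5.79 in UT7-5.3, and at 4.25 and 4.34 in K562. The UT7-5.3 difference of 0.81 was a 1.75-fold higher level, and K562 went the other way by -0.09. Over the 3 lines the mean was 0.31 ± 0.46 (SD, n = 3; limma adjusted p = 0.767). RIGI, which recognises RNA with a 5′ triphosphate end, was at 6.95 with shRINF and 7.21 with shcontrol in MV4-11, at 5.94 and 5.56 in UT7-5.3, and at 4.84 and 4.99 in K562. It was thus higher with shRINF in UT7-5.3 and lower in the other 2 lines. DHX58 (LGP2), the regulator of both sensors, had differences between -0.15 and 0.01. ADAR, which edits adenosines in double-stranded RNA, stayed between -0.06 and 0.03. EIF2AK2 (PKR), the kinase that stops translation on double-stranded RNA, differed by 0.28 in MV4-11, 0.09 in UT7-5.3 and -0.12 in K562.

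The 2′-5′-oligoadenylate synthetases, whose product activates an RNA-cutting nuclease, and the Mx GTPases lay low on these arrays. OAS2 was at the floor on all 6, with values up to 3.94, and OAS1 lay between 3.95 and 4.32. MX1 lay between 4.70 and 4.94 and MX2 between 4.51 and 4.79. OAS3 was the member of this group that passed the filter. It was at 5.99 with shRINF and 5.46 with shcontrol in MV4-11, at 5.09 and 5.33 in UT7-5.3, and at 5.44 and 5.46 in K562. Its MV4-11 difference of 0.53 was a 1.44-fold higher level, next to -0.24 in UT7-5.3 and -0.02 in K562. OASL, which binds RIG-I, was at 4.76 with shRINF and 4.85 with shcontrol in MV4-11, 4.74 and 4.91 in UT7-5.3, and 4.82 and 4.87 in K562, a mean difference of -0.10 ± 0.06 (SD, n = 3), and did not pass the filter. Apart from OAS3, differences in this group lay between -0.17 and 0.12.

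The IFIT proteins bind viral RNA that lacks the cap methylation of the host. IFIT1 was at the floor on all 6 arrays. Its highest value, 3.80, was that of UT7-5.3 with shRINF, against 3.30 with shcontrol, and the values of the other 4 arrays lay between 2.97 and 3.03. IFIT5 was at 4.35 with shRINF and 4.10 with shcontrol in MV4-11, at 4.62 and 4.40 in UT7-5.3, and at 4.07 and 4.09 in K562, close to the floor throughout. IFIT3 was at 4.79 and 4.75 in MV4-11, 5.92 and 5.75 in UT7-5.3, and 4.78 and 4.66 in K562, higher with shRINF in each line by 0.04 to 0.17 (mean 0.11 ± 0.07, SD, n = 3; limma adjusted p = 0.771). IFIT2 stayed between -0.08 and 0.14.

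IFI44, an interferon-induced cytoplasmic protein, was above the floor in UT7-5.3 alone of the 3 lines, at 6.07 with shRINF and 5.44 with shcontrol, a 1.55-fold higher level. Its values were 3.03 and 3.18 in MV4-11 and 2.94 and 2.88 in K562. Its neighbour IFI44L was at the floor on all 6 arrays. IFI6, a mitochondrial and endoplasmic reticulum protein, was at 6.52 with shRINF and 6.08 with shcontrol in MV4-11, at 8.57 and 8.62 in UT7-5.3, and at 6.96 and 7.12 in K562, so that it was higher with shRINF in MV4-11 and lower in the others. IFI16, a DNA sensor, was at 6.57 and 6.52 in MV4-11, 7.47 and 7.35 in UT7-5.3, and 5.83 and 5.49 in K562. It was higher in each line, and K562 had the largest difference, 0.34. IFI27 and IFI35 stayed between -0.16 and 0.13.

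The IFITM proteins sit in membranes and block the fusion of viruses with the cell. All 3 were higher with shRINF in MV4-11, by 0.25 for IFITM1, 0.31 for IFITM2 and 0.35 for IFITM3. IFITM1 was at 8.94 with shRINF and 8.69 with shcontrol in MV4-11, at 10.09 and 9.97 in UT7-5.3, and at 10.22 and 10.12 in K562. Its mean difference was 0.16 ± 0.08 (SD, n = 3; limma adjusted p = 0.768). In UT7-5.3 and K562 the 3 genes differed by -0.04 to 0.12. The 3 genes lie next to each other on chromosome 11 and are alike in sequence, so that their probes may share signal and the 3 values are not independent.

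ISG15 is a ubiquitin-like protein, HERC5 the ligase that attaches it to other proteins, and USP18 the protease that removes it. HERC5 had the lowest limma p of the members. It was at 7.03 with shRINF and 6.48 with shcontrol in MV4-11, at 6.63 and 6.03 in UT7-5.3, and at the floor in K562, at 3.86 and 3.85. The differences of 0.55 in MV4-11 and 0.60 in UT7-5.3 were 1.46-fold and 1.52-fold higher levels, and the mean over the 3 lines was 0.39 ± 0.33 (SD, n = 3; limma adjusted p = 0.761). USP18 was at 7.01 and 6.61 in MV4-11, 7.15 and 6.81 in UT7-5.3, and 6.01 and 6.01 in K562. It was thus higher with shRINF in MV4-11 and UT7-5.3, with a mean of 0.25 ± 0.22 (SD, n = 3; limma adjusted p = 0.767). USP41P, a near copy of USP18 that was picked out after its values were seen, differed by 0.24, 0.05 and 0.12 in MV4-11, UT7-5.3 and K562, and probes may read both. ISG15 itself was at 6.36 with shRINF and 6.17 with shcontrol in MV4-11, 6.45 and 6.49 in UT7-5.3, and 6.42 and 6.42 in K562, and HERC6, next to HERC5 on chromosome 4, differed by 0.08, 0.29 and -0.02.

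Among the other effectors, EPSTI1, an interferon-induced protein first described in epithelial cells next to stroma, had the largest within-line difference of the 48 members. It was at 4.69 with shRINF and 4.58 with shcontrol in MV4-11, at 7.86 and 6.36 in UT7-5.3, and at 5.29 and 5.11 in K562. The UT7-5.3 pair differed by 1.5, a 2.83-fold higher level, while the other pairs differed by 0.11 and 0.18. The mean was 0.60 ± 0.78 (SD, n = 3; limma adjusted p = 0.761). SAMD9 and SAMD9L, neighbours on chromosome 7 whose products inhibit translation, were both higher in UT7-5.3. SAMD9L was at 6.26 and 6.18 in MV4-11, 6.17 and 5.31 in UT7-5.3, and 5.28 and 5.11 in K562. SAMD9 was at 6.47 and 6.48 in MV4-11, 6.43 and 5.70 in UT7-5.3, and 5.69 and 5.66 in K562. In UT7-5.3 they differed by 0.86 and 0.73, with at most 0.17 in the other lines, and SAMD9 and SAMD9L each reached with shRINF about the level they had in MV4-11.

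BST2 (tetherin), which holds budding viruses at the cell surface, went the other way in UT7-5.3, at 8.62 with shRINF and 8.98 with shcontrol. It was at 7.37 and 7.20 in MV4-11 and at 8.31 and 8.07 in K562. XAF1, a promoter of apoptosis, was at 8.17 and 7.94 in MV4-11, 6.13 and 5.85 in UT7-5.3, and 5.16 and 5.28 in K562. The exonuclease ISG20 was lower in each line, by -0.01 in MV4-11, -0.25 in UT7-5.3 and -0.09 in K562. RSAD2 (viperin) and CMPK2, neighbours on chromosome 2 that act on nucleotides, stayed between -0.07 and 0.09.

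In the group of PARP proteins and nuclear body proteins, 4 of 5 members were higher with shRINF in UT7-5.3. Of all kept genes, 42.3% were higher there. PARP14, an ADP-ribosyltransferase, was at 8.07 with shRINF and 7.95 with shcontrol in MV4-11, at 7.53 and 6.85 in UT7-5.3, and at 7.06 and 7.08 in K562, a mean difference of 0.26 ± 0.37 (SD, n = 3; limma adjusted p = 0.767). PARP9 and DTX3L, which form an ADP-ribosylation and ubiquitin ligase complex, share the matched letters printed above. PARP9 differed by 0.04 in MV4-11, 0.46 in UT7-5.3 and -0.01 in K562, and DTX3L by 0.30, 0.27 and -0.01. SP100 and PML, both components of PML nuclear bodies, differed in opposite directions in UT7-5.3. SP100 was at 7.28 and 7.67 in MV4-11, 6.91 and 6.47 in UT7-5.3, and 6.35 and 6.42 in K562, and PML was at 6.37 and 6.29, 6.84 and 7.29, and 6.66 and 6.64 in the same order of lines. In UT7-5.3, SP100 was higher with shRINF by 0.44 and PML lower by -0.45.

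**Figure D3:**
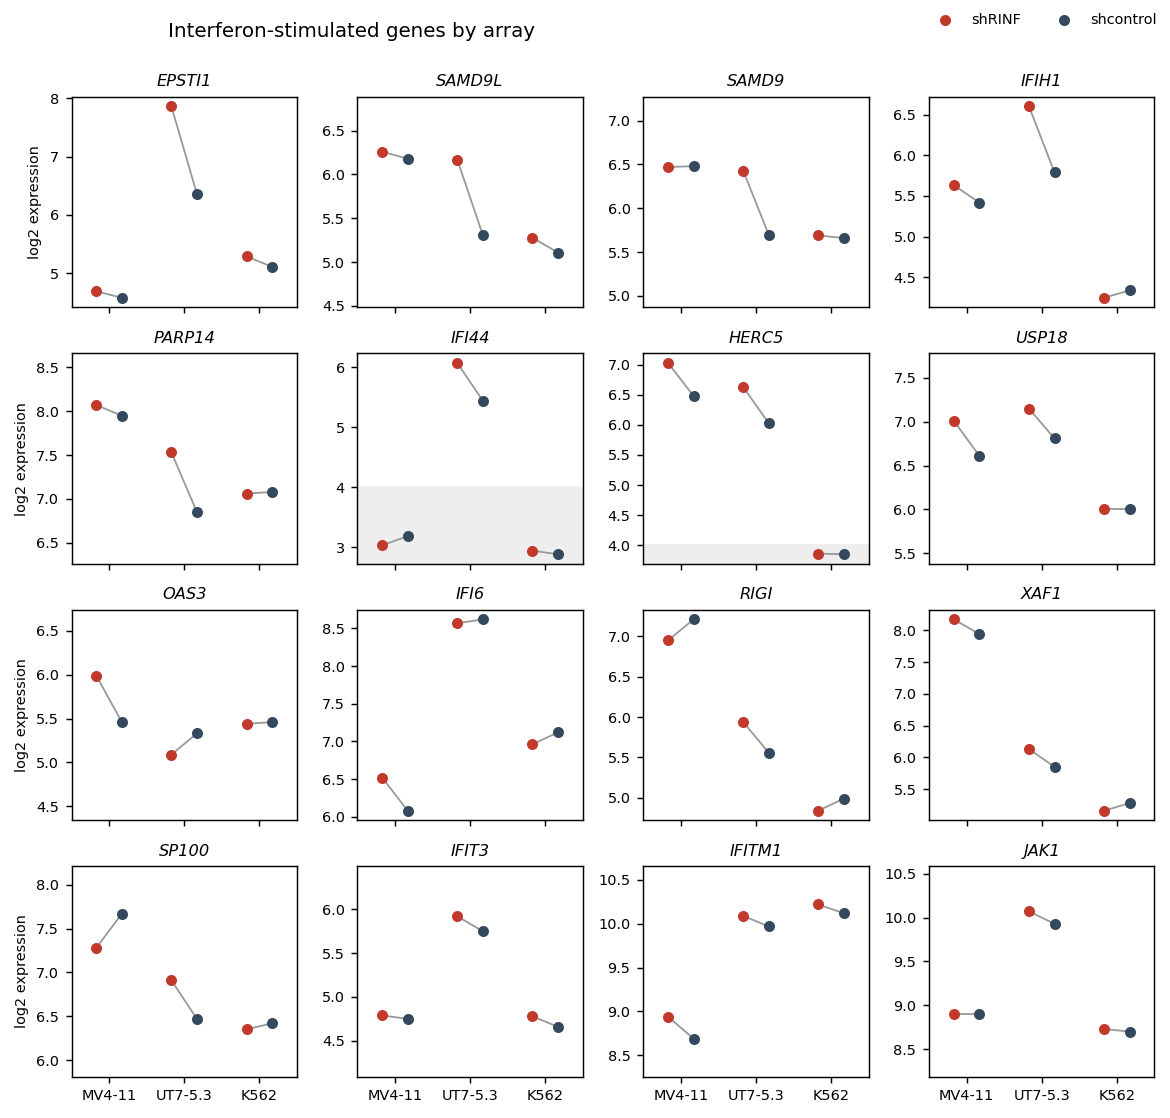
Log2 expression of 16 genes on each of the 6 arrays, with shRINF (red) left of shcontrol (dark blue) in each line and a grey line joining the pair; the shaded band marks values of 4 or less, and panels differ in their range. HERC5 and USP18 were higher with shRINF in MV4-11 and UT7-5.3, while EPSTI1, SAMD9L and SAMD9 differed most in UT7-5.3.

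Leaving out 1 line changed the limma calls. Without MV4-11, EPSTI1 (mean difference 0.84, adjusted p = 1.64e-06, range over 12 alternatives 1.64e-06 to 1) and SAMD9L (0.51, adjusted p = 0.0357, range 0.0357 to 1) were higher with shRINF and 52 genes were called in all. In that fit the prior degrees of freedom were infinite, so that every gene had the same spread and a large difference in UT7-5.3 could carry a call. Without UT7-5.3, and without K562, 0 genes were called. After the median difference of genes of like level was removed within each line, an alternative chosen after seeing the data, 14 members were past 0.3 upward in UT7-5.3 and 3 downward, where 14.1% and 6.52% of all kept genes were. Without that removal, lineage markers also differed in UT7-5.3, where the median difference of all kept genes was -0.06 and 9.47% were past 0.3 downward. The 6 kept megakaryocytic markers had a median difference of -0.425, with 4 past 0.3 downward. The 9 kept myelomonocytic markers had one of -0.23, also with 4 past it. The medians were -0.25 for 5 lymphoid, -0.22 for 5 fibroblast and epithelial, and 0.065 for 6 erythroid markers, with 0 past it downward. Among the markers past it, PF4, MPO, ELANE and AZU1 lay at 5.42 to 6.31 in UT7-5.3, much as in K562 (5.53 to 6.09). The others, ITGA2B, ITGB3, GP1BA and ITGAM, were higher in UT7-5.3 than in K562. Whether the marker differences follow the trend with mean level was not tested. In MV4-11 the differences of the 9 myelomonocytic markers ran from -0.84 to 1.22. The part of lineage markers in the interferon gene result was not tested.

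Members with the response element letters and those without them were described side by side. Members with no promoter window were in neither group. USP18 and IFITM2, both past 0.3 upward in MV4-11, and USP18 also in UT7-5.3, were left out in this way. PARP9 and DTX3L share 1 match but were counted separately. In UT7-5.3 the 17 kept members with the letters had a median difference of 0.17, 7 of them past 0.3 upward (41.2%), and the 13 without them 0.14, 3 of them past it (23.1%). Among other kept genes the shares were 13.3% of 375 with the letters and 14.1% of 10579 without. In MV4-11 the medians were 0.20 over 16 members with the letters, 5 past 0.3 upward, and -0.07 over 13 without, 0 past it. Among other genes there, 7.12% of 379 with the letters and 3.93% of 10548 without were past 0.3 upward. In K562, 0 of 15 members with the letters and 1 of 13 without, IFI16, were past it. SAMD9L and RIGI, higher in UT7-5.3, had no match in their windows, while ISG15 and IFI6 held matches and differed by -0.04 and -0.05 there.

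The second comparison asked how the levels of the interferon genes differed between the lines. It used all 48 members, with the shRINF and shcontrol arrays of a line as its 2 samples in an additive limma fit over 22411 genes, and a call needed both an adjusted p under 0.05 and a difference of 2-fold. In all, 17 members were called in at least 1 of the 3 comparisons of lines (35.4%, where 16.2% of all genes were) and 31 in none. MV4-11 against K562 gave 7 members higher (14.6%, where 5.77% of all genes were) and 1 lower (2.08%, where 5.09% of all genes were). MV4-11 against UT7-5.3 gave 2 higher (4.17%, background 4.68%) and 8 lower (16.7%, background 5.1%). UT7-5.3 against K562 gave 9 higher (18.8%, background 4.2%) and 0 lower (background 2.91%). On that lower side the limma count was 0 in all 13 alternatives as well, and of the 8 members with a negative difference 0 had an unadjusted p under 0.05. The backgrounds include genes at the floor in every line. Without the MV4-11 shcontrol array the 7 became 4, without the UT7-5.3 shRINF array the 2 became 4, and the 1 became 2 without the K562 shcontrol array and 3 without the MV4-11 shRINF array.

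HERC5 and XAF1 set MV4-11 furthest apart from K562. HERC5 averaged 6.76 ± 0.39 in MV4-11 and 6.33 ± 0.42 in UT7-5.3 and was at the floor in K562 (SD, n = 2 arrays each), so that it was at least 6.75-fold higher in MV4-11 than in K562 (limma adjusted p = 1.9e-05) and at least 5.03-fold higher in UT7-5.3 than in K562 (adjusted p = 6.39e-05). MV4-11 and UT7-5.3 did not differ in it beyond the threshold (0.43, adjusted p = 0.0732). XAF1 averaged 8.05 ± 0.16 in MV4-11, 5.99 ± 0.20 in UT7-5.3 and 5.22 ± 0.08 in K562 (SD, n = 2 each), 4.18-fold higher in MV4-11 than in UT7-5.3 and 7.14-fold higher than in K562 (limma adjusted p at most 3.15e-05).

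The line means of the sensors RIGI and IFIH1 differed in their order, though not every step was called. RIGI averaged 7.08 ± 0.18 in MV4-11, 5.75 ± 0.27 in UT7-5.3 and 4.92 ± 0.11 in K562 (SD, n = 2 each). It was 2.51-fold higher in MV4-11 than in UT7-5.3 (limma adjusted p = 8.05e-04) and 4.48-fold higher than in K562 (adjusted p = 7.83e-05). IFIH1 averaged 5.53 ± 0.15 in MV4-11, 6.2 ± 0.57 in UT7-5.3 and 4.30 ± 0.06 in K562. It was higher than in K562 in both, 2.35-fold in MV4-11 (adjusted p = 0.00291) and 3.73-fold in UT7-5.3 (adjusted p = 6.39e-04). MV4-11 and UT7-5.3 differed in IFIH1 by less than 2-fold (1.59-fold), which was not a call. The wide UT7-5.3 spread of IFIH1 is that between 6.60 with shRINF and 5.79 with shcontrol. With shcontrol MV4-11 was at 5.42.

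UT7-5.3 stood highest for another set of members. IFI44 averaged 5.76 ± 0.45 there and was at the floor in MV4-11 and K562, at least 3.38-fold lower in each (limma adjusted p = 6.87e-05 and 7e-05). IFI6 averaged 6.30 ± 0.31 in MV4-11, 8.59 ± 0.04 in UT7-5.3 and 7.04 ± 0.11 in K562 (SD, n = 2 each), 4.91-fold lower in MV4-11 than in UT7-5.3 and 2.94-fold higher in UT7-5.3 than in K562. EPSTI1 averaged 4.64 ± 0.08 in MV4-11, 7.11 ± 1.06 in UT7-5.3 and 5.20 ± 0.13 in K562, 5.56-fold lower in MV4-11 than in UT7-5.3 (limma adjusted p = 0.00123) and 3.76-fold higher in UT7-5.3 than in K562 (adjusted p = 0.00483), and its wide UT7-5.3 spread is that between the shRINF and shcontrol arrays. JAK1 averaged 8.90 ± 0.00, 10.00 ± 0.10 and 8.71 ± 0.02 in the same order of lines, more than 2-fold higher in UT7-5.3 than in each of the others. IFIT3 averaged 4.77 ± 0.03, 5.84 ± 0.12 and 4.72 ± 0.08. For these genes MV4-11 and K562 differed by less than 2-fold, with an adjusted p under 0.05 in IFI6 alone (0.00783).

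IFITM1 was lower in MV4-11, at 8.81 ± 0.18, than in UT7-5.3, at 10.03 ± 0.08, and K562, at 10.17 ± 0.07 (SD, n = 2 each; 2.32-fold and 2.56-fold, limma adjusted p at most 7.9e-05). UT7-5.3 and K562 did not differ in it beyond the threshold (-0.14, adjusted p = 0.301). IFITM3 and BST2 were called lower in MV4-11 against UT7-5.3, by 2.51-fold and 2.86-fold. IFI16 and HERC6 were called higher in UT7-5.3 against K562, by 3.36-fold and 2.20-fold. SAMD9L, DTX3L and SP100 were called higher in MV4-11 against K562, by 2.03-fold to 2.39-fold. Of the 6 OAS and Mx members 0 were called between any 2 lines, and of the 7 receptor and signalling members JAK1 was. Of all genes, 16.2% were called in at least 1 comparison, so that counts of this size over 6 and 7 genes are near the background.

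**Figure D4:**
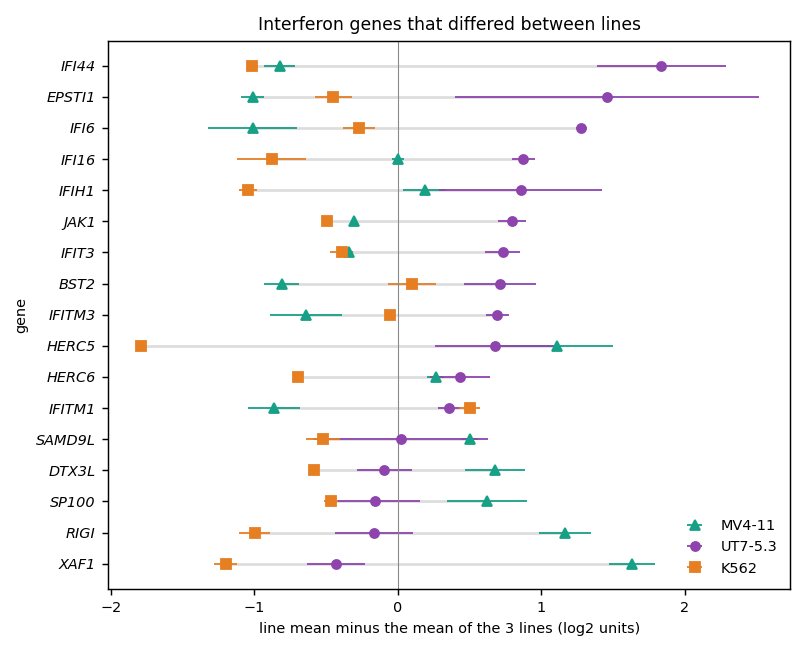
Mean log2 level in each line minus the mean of the 3 lines, for the 17 genes called in at least 1 comparison of lines; green triangles are MV4-11, purple circles UT7-5.3 and orange squares K562, bars are the SD of the 2 arrays of a line, and values at the floor (IFI44 in MV4-11 and K562, HERC5 in K562) are plotted as measured. Genes at the top were highest in UT7-5.3, and those at the bottom (XAF1, RIGI) highest in MV4-11.

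The interferons themselves and other genes of the pathway completed the picture. Of 21 interferon genes, 18 were at the floor on all 6 arrays, among them all type I genes measured and IFNG, with IFNB1 at 2.78 or less. The other 3, the type III genes IFNL1, IFNL2 and IFNL3, lay between 4.91 and 5.96, and their line means differed by 0.04 to 0.07. A further list of 66 pathway genes held 59 with a feature, of which 52 were kept, and 0 of them passed limma's threshold for shRINF minus shcontrol. In UT7-5.3, 5 of 50 were past 0.3 upward (10.0%) and 3 downward (6%), in MV4-11, 0 of 51 upward and 7 downward (13.7%), and in K562, 1 of 50 each way (2.00%), against the backgrounds given above. Their median difference was -0.04 in MV4-11, 0.005 in UT7-5.3 and 0.01 in K562.

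By mean difference the list was led by CXCL10, a T cell attracting chemokine, at 5.97 with shRINF and 4.81 with shcontrol in MV4-11. It was at the floor on the other 4 arrays, at 3.29 to 3.55, and did not pass the filter. GBP5, a guanylate-binding protein of the interferon gamma response, was higher by 0.16 in MV4-11, 0.43 in UT7-5.3 and 0.27 in K562 (mean 0.29 ± 0.14, SD, n = 3; limma adjusted p = 0.761). IRF8, a transcription factor of monocytes, was lower in MV4-11 by -0.57, with -0.18 and 0.04 in the others, and NMI differed by 0.08, 0.35 and 0.15. Between lines, 4 genes were named by the range of their line means, with values at the floor taken as measured, so that the ranges give no order. IRF8 was at 9 with shRINF and 9.57 with shcontrol in MV4-11, 4.93 and 5.11 in UT7-5.3, and 5.03 and 4.99 in K562. SLFN11, which sensitises cells to DNA damage, was also highest in MV4-11, as was the helicase DDX60L, which was at the floor in UT7-5.3. The death ligand TNFSF10 was highest in UT7-5.3, at 8.11 with shRINF and 8.09 with shcontrol, and at the floor in K562.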

How the data were processed

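Per the submitters' processing notes, the authors ran RMA (Affymetrix Expression Console), and each feature of the deposited table holds a log2 value. Version and genome build: not given in the sources used here. The method equalises the arrays' distributions, so a shift shared by most transcripts is removed. The log base was read as 2 from method and range. Of 67528 features, 23781 had 1 gene symbol, 1543 several and 42204 none listed; symbols were updated to RefSeq (22407 of 22411 genes matched), and of several features of a gene that of highest mean was used.

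Members and lists were chosen with earlier results of these data known. limma 3.58.1 (R 4.3.3; lmFit, eBayes) compared shRINF with shcontrol with the cell line as block, pairing the arrays that come from the same line (2 residual degrees of freedom, 10.7 prior), with Benjamini-Hochberg adjustment over 15311 kept genes, and lines over all 22411 genes without a filter. Nothing says that arrays came from repeated cultures, so p-values measure the spread between these 6 arrays, whose number limits the precision. With 3 pairs, the smallest two-sided p of an exact sign-flip test is 0.25. Both fits were run on simulated data, in which a knockdown effect had the same size in all 3 lines. Recovery in the line fit was counted without checking direction or fold. The runs therefore give no measure of what the fits would miss in these data. All members could be named; values on every array were given for those called in 2 or more line comparisons, those past 0.3 in 2 lines, the largest mean difference per role group, and, after values were seen, others such as SP100, SAMD9, BST2, TYK2, IFNAR2, PML, ISG15, IFI16 and OAS3. Of other lists, up to 4 genes were named by mean difference and 4 by range between lines.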

Additional observations from a re-analysis of the deposited data

Results flagged for a closer look

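SP100 differed in opposite directions in 2 lines, by -0.39 in MV4-11 and by 0.44 in UT7-5.3 (shRINF minus shcontrol), with -0.07 in K562. Each value comes from 1 pair of arrays, and the difference between the lines was not tested. It was the single member with differences of 0.3 or more in opposite directions in 2 lines.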

How the results depend on the processing

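Alternatives covered the filter, how features were combined, how values were normalized (3 other ways), how variance was modelled, the block, the size or fold asked for, the floor, and leaving out lines or arrays; 2 were added after the data were examined (no filter, and removal of the trend with mean level). Of 150 recounts, 132 stayed within 1.5 times the main count. These include counts of 0 that stayed 0, such as the 13 recounts of members lower in UT7-5.3 than in K562. For shRINF minus shcontrol, robust eBayes called 2 genes, CXXC5 and DYNLRB1, neither a member, and leaving out a line gave 0 to 52 genes and 0 to 2 members. Without the replicate block 0 genes were called. With no fold minimum, members called were 18 higher and 6 lower for MV4-11 against K562, 7 and 17 for MV4-11 against UT7-5.3, and 23 higher for UT7-5.3 against K562. Of all genes, 16.8% and 19.4%, 16.3% and 18.7%, and 14.5% were then called in those directions. Leaving out each array gave 4 to 8 higher and 1 to 3 lower, 2 to 4 higher and 8 to 9 lower, and 8 to 9 higher and 0 lower in the same order; a line left with 1 array is then assumed to vary like the others. At 0.5 log2 units, members past the size were 2 higher and 0 lower in MV4-11, 7 and 0 in UT7-5.3, and 0 higher in K562, where 1.17% and 0.914%, 3.29% and 1.17%, and 0.053% of all kept genes were, and median centring left 1 lower in UT7-5.3, where 4.08% of genes were. The number of arrays limits precision, and values near 4 cannot be told from background.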
